A study of Mus musculus with 12 samples.

Results

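The S100 calcium-binding proteins of mouse leukaemic cells are described here from 7 named genes, S100a8, S100a9, S100a4, S100a6, S100a10, S100a11 and S100a13, out of 41214 genes in the deposited counts. The members were taken by name, and all 7 passed the filter on low counts that left 13822 genes. RNA came from leukaemic cells of 4 mice, 1 library each, of the strain given as C57/BL6 NUP98-HOXD13. All 4 mice carry this transgene, which joins parts of the nucleoporin Nup98 and the homeobox protein Hoxd13 and gives rise to myelodysplasia and acute myeloid leukaemia, and in the mouse line of this name it is expressed from blood-specific Vav1 elements. The groups were 2 mice of Gfi1 KI/wt (heterozygous, called KI here) and 2 mice of Gfi1 KD/KD (homozygous, called KD here). By these genotypes the KI mice carry a wild-type Gfi1 allele beside the altered one, and the KD mice carry none. Neither group is wild type at both alleles. The age of the mice is not given in the sources used here, and neither is any sorting of the cells. Another 8 libraries, of histone H3 and H3K9Ac chromatin, were not used here.

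S100 proteins are small proteins with a pair of EF-hand calcium-binding loops that mostly act as dimers. S100a8 and S100a9 join as calprotectin, the main cytosolic protein of neutrophils, which is made as granulocytes and monocytes mature, binds zinc and manganese, and is released as an alarm signal that Tlr4 and Ager recognise. S100a4, S100a6, S100a10 and S100a11 are found in many cell types, where they bind myosin, ubiquitin ligase adaptors and annexins, and S100a13 takes part in the unconventional release of Fgf1 and Il1a. Gfi1 is a zinc finger repressor that blood progenitors need on the way to neutrophils.

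All 7 genes lie on chromosome 3 (coordinates from RefSeq, GRCm38.p6). S100a13 (90514233 to 90524581), S100a4 (90603770 to 90606045), S100a6 (90612894 to 90614414), S100a8 (90669071 to 90670034) and S100a9 (90692630 to 90695721) stand in the main S100 cluster, with 22595 bases between S100a8 and S100a9. S100a11 (93520496 to 93526288) and S100a10 (93555117 to 93564645) lie together 2.82 Mb further on. Promoters are shown for S100a8 and S100a9, whose levels followed each other, and for S100a4 and S100a11, as a neighbour and a distant member that did not follow them. They are the 150 bases before and 30 after the RefSeq start, at chr3:90668921-90669100 (plus strand), chr3:90695692-90695871 (minus strand), chr3:90603620-90603799 (plus strand) and chr3:93520346-93520525 (plus strand), written 5′ to 3′ on the gene's strand. Capitals mark each motif match on either strand.
S100a8: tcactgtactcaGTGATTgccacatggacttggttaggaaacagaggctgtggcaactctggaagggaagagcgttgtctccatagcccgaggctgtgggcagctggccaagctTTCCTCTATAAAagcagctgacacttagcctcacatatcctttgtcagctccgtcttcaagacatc
S100a9: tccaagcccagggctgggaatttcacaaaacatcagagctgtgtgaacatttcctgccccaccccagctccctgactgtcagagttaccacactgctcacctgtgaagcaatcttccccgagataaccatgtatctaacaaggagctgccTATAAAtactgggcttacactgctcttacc
S100a4: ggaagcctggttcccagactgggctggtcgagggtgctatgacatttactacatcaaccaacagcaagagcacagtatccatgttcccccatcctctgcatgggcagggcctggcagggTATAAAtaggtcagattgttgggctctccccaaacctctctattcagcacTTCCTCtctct
S100a11: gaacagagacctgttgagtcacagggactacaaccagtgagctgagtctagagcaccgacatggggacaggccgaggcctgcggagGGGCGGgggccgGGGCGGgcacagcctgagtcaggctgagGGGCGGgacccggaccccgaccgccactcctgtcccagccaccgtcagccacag
Short motifs were searched on both strands: the TATA box (TATAAA), the GC box (GGGCGG), and short core letters for C/EBP factors (TTGCNNAA), PU.1 (GAGGAA) and Gfi1 (AATCAC). No matches overlapped each other in the windows shown. Of the 7 members 6 had a promoter entry, and S100a10 had none. TATAAA stood in the windows of S100a8, S100a9 and S100a4, against 8.37% of all 32851 windows of 180 bases. It began 30 bases before the start of S100a8 and 31 bases before that of S100a4, and at base 1 of the annotated S100a9 start. GGGCGG, found in 31.0% of all windows, was present in S100a11, at 3 places. AATCAC, in 6.24% of windows, matched in S100a8 on the opposite strand. GAGGAA, in 17.5% of windows, matched in S100a8 and S100a4, also on the opposite strand. TTGCNNAA, in 6.32% of windows, matched in 0 of the 6 members, which says only that these letters are not in the windows. S100a6 and S100a13 held 0 of the 5 motifs. The S100a13 window, chr3:90514285-90514464, lies inside the gene as given above, so bases before its start at 90514233 were not searched.

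Gene counts ranged from 4581593 to 11934542 per library, lowest in KI replicate 1, where 88.3% of the reads with a unique alignment matched no gene, against 63.2% to 68.3% in the other 3. Summed over olfactory, vomeronasal, taste and trace amine receptor genes, which serve the senses and not blood cells, that library held 992 CPM (counts scaled to library size and by TMM, a factor that corrects for library composition), against 145 to 239 in the others. The KI libraries were less like each other (Pearson r = 0.858 across genes, which are not independent replicates) than either was to a KD library (0.869 to 0.917), and the KD libraries were the most alike (0.958). Gfi1 itself lay at 36.2 and 89.0 CPM in KI and at 7.22 and 1.12 CPM in KD, lower in both KD libraries. Ptprc, the pan-leukocyte surface phosphatase, and Mpo, the myeloperoxidase of granulocyte precursors, were present in every library, from 329 to 1092 CPM and from 897 to 2177 CPM.

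The first comparison asked whether S100 levels differed between the 2 Gfi1 genotypes. RNA of both calprotectin subunits was lower in each KD mouse than in either KI mouse, S100a10 RNA was higher, and the remaining 4 genes had log2 fold changes between -0.41 and 0.54. By edgeR's quasi-likelihood test with Benjamini-Hochberg adjustment over all 13822 genes, 0 of the 7 members passed, as did 0% of all genes. At an unadjusted p under 0.05 stood 3 of 7 members, against 9.63% of all genes. They were S100a8 and S100a9, lower in KD like 8.34% of all genes, and S100a10, higher in KD like 1.29%. The libraries of the genotypes did not overlap for 4 of 7, against 38.0% of all genes. Of these, S100a8 and S100a9 lay lower in KD, as did 23.5% of all genes, and S100a4 and S100a10 lay higher, as did 14.5%. The log2 fold change, KD over KI, was positive for 4 members and negative for 3, against 44.5% and 55.5% of all genes, with a median of 0.21 over the members and -0.06 over all genes. The choice of scaling moves such values: with library size alone, the median of all genes shifted by 0.43, and the share of genes higher in KD among those at an unadjusted p under 0.05 went from 13.4% to 77.2%. With the 10 most abundant genes left out, mainly predicted genes at repeats, the median shifted by 0.17 and that share was 24.9%. CPM does not account for transcript length, so levels are compared between libraries for 1 gene and not between genes.

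**Figure D1:**
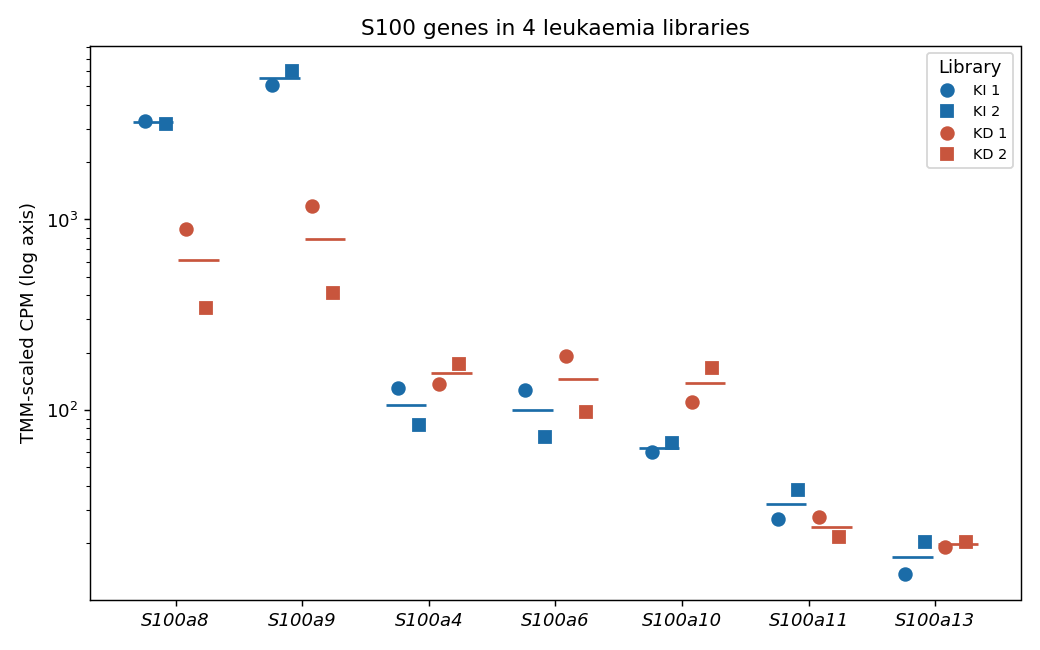
TMM-scaled CPM (log axis) of the 7 S100 genes in each of the 4 libraries, KI in blue and KD in red, with lines at the genotype means. S100a8 and S100a9 lie between 3176 and 6012 CPM in KI and between 344 and 1173 CPM in KD, while the red points of S100a10 stand above the blue ones.

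S100a9, the larger calprotectin subunit, had 21925 and 50676 counts in KI replicates 1 and 2 and 16579 and 4753 counts in KD replicates 1 and 2. These correspond to 5085 and 6012 CPM in KI and 1173 and 411 CPM in KD. The genotypes stood well apart, with the lower KI library 4.33-fold above the higher KD library, and the KD mice themselves differed 2.86-fold. The means were 5548 ± 656 CPM in KI and 792 ± 539 CPM in KD (SD, n = 2 each), a fitted log2 fold change of -2.81 ± 0.65 (SE), so that KI was 7.01-fold higher. Its adjusted p was 0.518 in edgeR's quasi-likelihood test.

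S100a8, the other subunit, had 14161 and 26769 counts in KI and 12558 and 3981 in KD. Its level was 3284 and 3176 CPM in KI, nearly equal between the mice, and 889 and 344 CPM in KD. The lower KI library was 3.57-fold above the higher KD library, and KD replicate 2 was the lowest library for both subunits. The log2 fold change was -2.39 ± 0.58 (SE), a level 5.24-fold higher in KI, with adjusted p = 0.518 in edgeR. DESeq2, which gave an adjusted p for 13018 of the 13822 genes and for all 7 members, called 2 of them, S100a9 (log2 -2.69, adjusted p = 0.000439) and S100a8 (-2.28, adjusted p = 0.0031), against 1.09% of those 13018 genes. Both were lower in KD, like 1.05% of them, while 0 members were called higher, against 0.0384%. Over the 14 alternatives the adjusted p ran from 0.000439 to 1.00 for S100a9 and from 0.0031 to 1.00 for S100a8. Both also passed in edgeR with no low-count filter (adjusted p = 0.0083 and 0.047) and without KI replicate 2 (adjusted p = 0.0283 and 0.0295). These fits called 0.555% and 24.6% of all genes they tested.

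The balance of the subunits was a ratio within each library, free of scaling between libraries. S100a8 made up 39.2% (95% exact binomial interval 38.7% to 39.7%) of the counts of both genes in KI replicate 1 and 34.6% (34.2% to 34.9%) in KI replicate 2. In KD it made up 43.1% (42.5% to 43.7%) in replicate 1 and 45.6% (44.5% to 46.6%) in replicate 2. The share was higher in both KD libraries, by 7.44 percentage points between the genotype means, and S100a9 counts exceeded S100a8 counts in all 4 libraries. However, KI replicate 1 (39.2%) lay closer to KD replicate 1 (43.1%) than to KI replicate 2 (34.6%). The intervals cover counting error only, and with 2 mice against 2 an exact permutation test cannot give a two-sided p below 0.333.

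S100a10, the partner of annexin A2 at the inner face of the plasma membrane, lay the other way. It had 258 and 565 counts in KI and 1564 and 1933 in KD, or 59.8 and 67.0 CPM in KI and 111 and 167 CPM in KD. Both KD libraries were above both KI libraries, the nearest by 1.65-fold, and the KI mice were within 1.12-fold of each other. The means were 63.4 ± 5.09 CPM in KI and 139 ± 39.8 CPM in KD (SD, n = 2 each), a log2 fold change of 1.13 ± 0.32 (SE) or 2.19-fold, with adjusted p = 0.518 in edgeR and 0.0984 in DESeq2. A log2 fold change of 1 or more was found in 2.60% of all genes. That of S100a10 was 1.30 without KI replicate 2 and ran from 0.87 to 1.55 over the 14 alternatives. S100a10 did not pass in any alternative that kept all 4 libraries.

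S100a4, which binds nonmuscle myosin and is linked to cell motility, lay at 131 and 83.0 CPM in KI and 138 and 173 CPM in KD. The groups did not overlap, but KI replicate 1 and KD replicate 1 were only 1.05-fold apart, closer than the KI mice were to each other (1.57-fold). The log2 fold change was 0.54 ± 0.34 (SE, adjusted p = 0.686 in edgeR). It was 1.03 without KI replicate 1 and 0.34 without KI replicate 2, and with upper quartile scaling the groups overlapped.

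S100a6, or calcyclin, which binds the ubiquitin ligase adaptor Cacybp, lay at 127 and 71.9 CPM in KI and 191 and 97.7 CPM in KD. Replicate 1 was the higher mouse in each genotype, and the groups overlapped. The log2 fold change was 0.54 ± 0.46 (SE, adjusted p = 0.825 in edgeR), and it went from 0.11 without KD replicate 1 to 1.17 without KI replicate 1.

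S100a11, a partner of annexin A1, lay at 26.7 and 37.8 CPM in KI and 27.3 and 21.4 CPM in KD. The groups overlapped, and the log2 fold change of -0.41 ± 0.34 (SE, adjusted p = 0.828 in edgeR) was 0.04 with library size only and -0.02 without KI replicate 2. The pseudogene S100a11-ps on another chromosome had 1 count in all 4 libraries together, and reads that align to both are counted for neither.

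S100a13 was the lowest in counts, 59 and 170 in KI and 268 and 236 in KD, or 13.7 and 20.2 CPM against 19.0 and 20.4 CPM. The groups overlapped, with 3 of 4 libraries within 19.0 to 20.4 CPM and KI replicate 1 below them. The log2 fold change was 0.21 ± 0.37 (SE, adjusted p = 0.961 in edgeR), and 0.62 without KI replicate 2. Its first 98 bases overlap the start of S100a1 on the opposite strand. Which strand was counted is not given in the sources used here, so reads of this stretch, and antisense reads at any member, cannot be assigned with certainty.

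**Figure D2:**
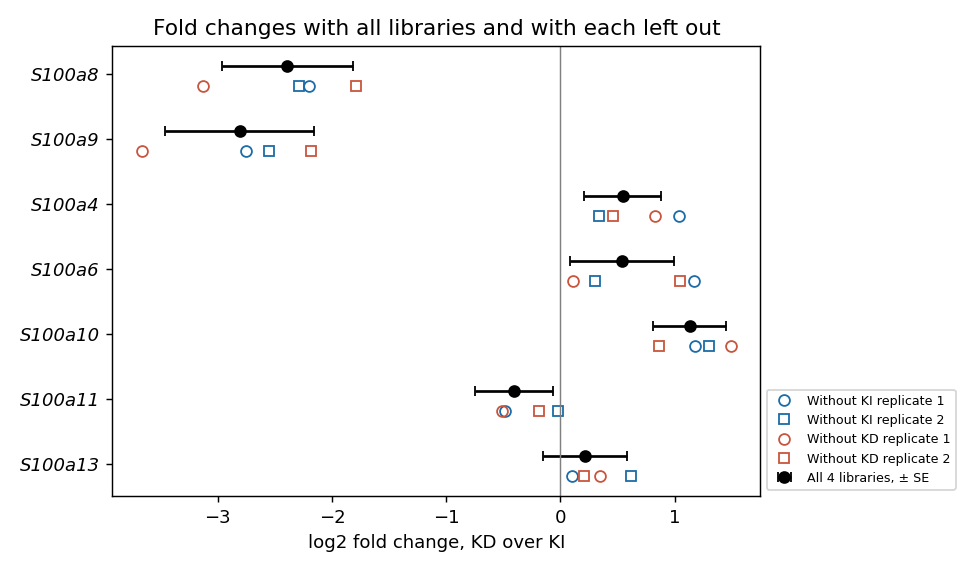
Fitted log2 fold change, KD over KI, of each S100 gene with all 4 libraries (black, with its standard error) and with each library left out in turn (open symbols, no error shown). S100a8 and S100a9 stay between -3.66 and -1.79 and S100a10 between 0.87 and 1.49, while S100a11 and S100a13 come within 0.10 of 0 without 1 library.

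Ratios within a library do not depend on scaling, so the members were also set against each other within each library. These pairs were chosen after the levels were seen, and the ratios are a description with no test. There were 85.0 and 89.7 S100a9 counts for each S100a10 count in KI, and 10.6 and 2.46 in KD. The ratio of S100a9 to S100a4 was 38.9 and 72.4 in KI and 8.52 and 2.37 in KD. Against S100a13, the member whose fold change was nearest to 0, it was 372 and 298 in KI and 61.9 and 20.1 in KD. The KD ratios thus lay below the KI ratios whichever of the 5 other members stood as reference, S100a6 (40.0 and 83.6 against 6.13 and 4.20) and S100a11 (191 and 159 against 43.0 and 19.2) included. The ratio of S100a4 to S100a6, 1.03 and 1.16 in KI and 0.719 and 1.77 in KD, overlapped between the genotypes.

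**Figure D3:**
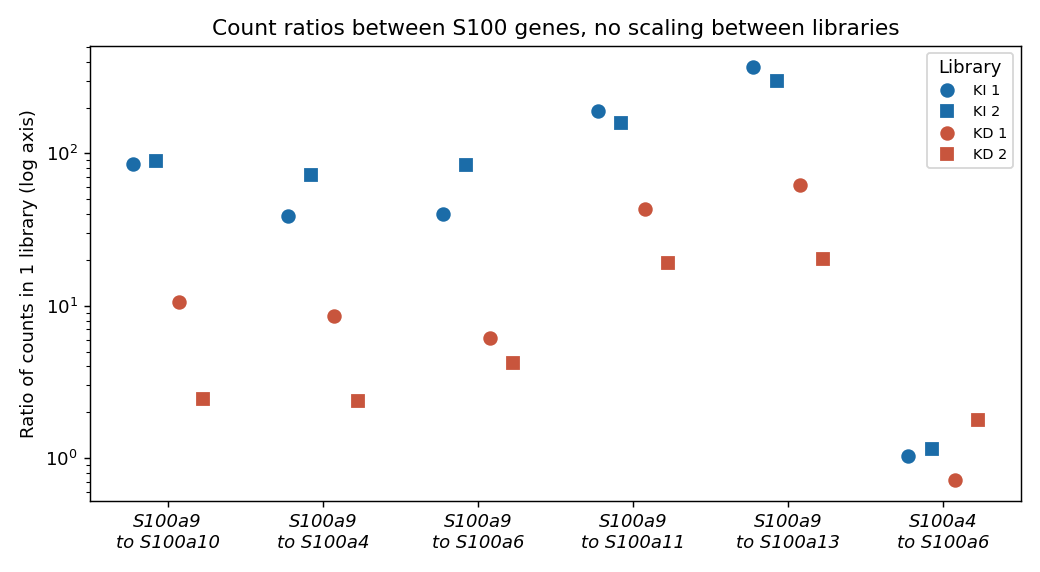
Ratio of the counts of 2 S100 genes within each library (log axis), with KI in blue and KD in red. The 5 ratios of S100a9 to another member are lower in both KD libraries, and KD replicate 2 is the lowest in each, whereas S100a4 to S100a6 lies between 0.719 and 1.77 with the genotypes interleaved.

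The 7 genes took 0.821% and 0.734% of all gene counts in KI and 0.302% and 0.139% in KD. All gene counts here include the predicted genes Gm10800 and Gm26870, which held 17.2% and 10.8% on average over the libraries. Shares of this total are not corrected for library composition. S100a8 and S100a9 together made up 95.9% and 97.0% of the members' counts in KI, but 80.9% and 61.1% in KD. The share of S100a4 was 1.496% and 0.877% in KI and 5.40% and 14.04% in KD, and that of S100a10 was 0.686% and 0.708% in KI and 4.34% and 13.5% in KD. Summed over the 5 members other than calprotectin, the level was 358 and 280 CPM in KI and 486 and 480 CPM in KD.

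Of 10 other S100 family genes listed, 1 passed the low-count filter, S100a1, which is known best from heart and muscle, at 10.2 and 42.9 CPM in KI and 10.4 and 18.2 CPM in KD. Its groups overlapped (log2 -0.91 ± 0.71, SE, adjusted p = 0.799 in edgeR), with KI replicate 2 the highest library. S100a3, S100a5, S100a7a, S100a7l2, S100a14, S100a16, S100b, S100g and S100z had at most 7 counts in any library, the highest being S100a14 in KI replicate 1. S100a2, added to the list later, had 1 count in KI replicate 2 and 1 in KD replicate 1. A level of 3 counts corresponds to between 0.212 and 0.696 CPM in these libraries.

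Of the 4 annexin partners, 3 were positive in fold change and 1 negative, 0 passed edgeR's test, and the median was 0.11. Anxa2, which holds S100a10 in a stable complex, lay at 321 and 399 CPM in KI and 439 and 395 CPM in KD, with overlapping groups (log2 0.21 ± 0.31, SE). There were 5.36 and 5.95 Anxa2 counts for each S100a10 count in KI and 3.97 and 2.37 in KD. Anxa1, the partner of S100a11, was lower in both KD libraries, at 719 and 920 CPM against 443 and 341 CPM (log2 -1.06 ± 0.35, SE, adjusted p = 0.518 in edgeR). Anxa6 was higher in both (142 and 133 against 209 and 316 CPM), and Anxa11, which binds S100a6, had a log2 fold change of 0.0095 ± 0.32 (SE).

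Among the 9 other intracellular partners 6 were tested, 4 with a positive and 2 with a negative fold change, and 0 passed. Myh9, the nonmuscle myosin heavy chain that S100a4 binds, lay at 1539.9 and 1486 CPM in KI and 1691 and 1617 CPM in KD, without overlap and with a log2 fold change of 0.13 ± 0.36 (SE). Cacybp had a log2 fold change of -0.27 ± 0.43 (SE), with overlapping groups. Ahnak, a giant scaffold that binds S100a10 with annexin A2, lay at 2095 and 670 CPM in KI and 2669 and 2008 in KD, also overlapping. Myh10 and Ppfibp1, the pair with the lowest p, lay at -3.004 ± 1.06 and 1.99 ± 0.99 (SE). Myh10 had few counts, 37 and 17 in KI and 13 and 4 in KD. Ppfibp1 had 44 and 9 counts in KI and 230 and 312 in KD. Fgf1 and Il1a, cargo of S100a13, stood below 3.5 CPM in every library and were not tested.

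Of the 8 receptors for extracellular S100 proteins and their co-receptors, all tested, 5 were positive in fold change and 3 negative, the median was 0.55, and 0 passed edgeR's test. Cd14, a co-receptor of Tlr4 and a monocyte marker, was higher in both KD libraries, at 8.35 and 11.2 CPM against 26.3 and 27.6 CPM (log2 1.46 ± 0.36, SE, adjusted p = 0.518 in edgeR). Tlr4, a signalling receptor for calprotectin, varied more within KI than between genotypes, at 37.3 and 2.61 CPM in KI and 42.2 and 22.9 CPM in KD. Ager, the receptor for advanced glycation end products, stayed between 4.599 and 6.13 CPM in all 4 libraries. Cd36, a scavenger and fatty acid receptor, had a log2 fold change of -3.01 ± 0.97 (SE) on levels of 0.173 to 4.41 CPM.

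Transcription factors linked to the calprotectin genes split evenly, 4 of 8 positive and 4 negative, with 0 past edgeR's test. DESeq2 called 1 of the 8, Gfi1 (adjusted p = 0.0012), lower in KD like 1.05% of genes. Cebpe, which late granulocyte genes need, was lower in both KD libraries at 51.7 and 176 CPM against 28.5 and 27.0 CPM (log2 -2.04 ± 0.60, SE, adjusted p = 0.518 in edgeR). Cebpb, which works in monocytes and emergency granulopoiesis, was higher in both at 177 and 197 CPM against 285 and 346 CPM (0.75 ± 0.29). Cebpa, the factor of early granulocyte commitment, overlapped at 93.7 and 207 CPM against 105 and 192 CPM (-0.02 ± 0.50). Cebpd and Stat3 overlapped as well (0.22 ± 0.30 and 0.29 ± 0.30). Spi1, which encodes PU.1, had 0.37 ± 0.26, Hif1a -0.33 ± 0.28 and Gfi1 -3.89 ± 0.95 (log2 fold changes with SE), without overlap.

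Markers of other cell types and stages moved with the genotypes too, and their part in the S100 differences was not tested. In bulk RNA, fewer cells of a type and less RNA per cell cannot be told apart. Fold changes were negative for all 14 mature neutrophil genes (median -1.67), and 11 lay lower in both KD libraries, against 23.5% of all genes. Their summed level was 11062 and 11910 CPM in KI and 3512 and 3924 CPM in KD. Summed calprotectin RNA was 8369 and 9188 CPM in KI and 2062 and 755 CPM in KD. In the KD mice 12 of the 14 neutrophil genes were higher in replicate 1, as both calprotectin genes were, and Chil3 and Cd177 were not. Chil3, a chitinase-like protein of early neutrophils and monocytes, held 1470.4 and 2666 CPM of the KD sums, which without it were 2041 and 1258 CPM. DESeq2 called 7 of the 14, all lower in KD, against 1.05% of genes, among them Camp (adjusted p = 1.92e-17) and Ngp (adjusted p = 8.08e-08). Granule genes set against S100a9 within a library differed in turn: there were 0.418 and 0.591 Ngp counts per S100a9 count in KI and 0.254 and 0.283 in KD. For Camp, the cathelicidin, the ratio was 0.233 and 0.3004 in KI and 0.0915 and 0.185 in KD, also without overlap. Ltf, the lactoferrin gene, overlapped at 0.524 and 0.192 against 0.241 and 0.185.

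The 5 tested genes of the primary granule and promyelocyte list had a median of 0.02, with sums of 1601 and 3578 CPM in KI and 2296 and 4153 CPM in KD, and Azu1 had no match in the counts. Of 14 monocyte and macrophage genes 10 had a positive fold change, with a median of 0.67, and 6 lay higher in both KD libraries, against 14.5% of all genes. Lower in both were 2, C1qa and C1qb, at no more than 2.49 CPM in any library, against 23.5% of all genes. Their sum was 2845 and 2309 CPM in KI and 4045 and 4699 CPM in KD. Both KD libraries lay below both KI libraries for all 9 erythroid genes, against 23.5% of all genes. DESeq2 called 4 of the 9, all lower in KD, against 1.05% of genes. The list had sums of 425 and 418 CPM in KI and 60.4 and 3.37 CPM in KD. Epor was at 0 counts in KD replicate 2. Fold changes of all 7 T cell genes were negative, against 55.5% of all genes, and 5 lay lower in both KD libraries, against 23.5%. Their sums were 53.1 and 65.8 CPM in KI and 8.07 and 11.8 CPM in KD, with 0 of them at 0 counts. Cd3e alone held 6.26 and 37.3 CPM of the sums in KI replicates 1 and 2. Among the 7 T cell genes DESeq2 called 1, Cd3e, lower in KD like 1.05% of genes. The 3 tested B cell genes were negative in fold change, like 55.5% of all genes, but the groups overlapped for each. Ebf1 had 62 and 8 counts in KI and 21 and 18 in KD, and Ms4a1 had 20 and 7 in KI and 5 and 12 in KD. Pax5 was at 0 counts in KD replicate 2. Sums were 43.9 to 60.3 CPM in KI and 58.4 to 84.5 in KD for stroma and endothelium genes. Of these sums Pecam1 alone held 35.3 and 36.8 CPM in KI and 54.2 and 80.8 CPM in KD. The median fold change of the 5 tested genes was -1.84 (log2), with 4 negative. Megakaryocyte sums were 11.3 to 21.1 CPM in KI and 3.37 to 28.5 CPM in KD, with 25.5 CPM from Itga2b in KD replicate 1. Of the 3 tested genes 2 were negative (median -2.76). Sums for eosinophil, basophil and mast cell genes were 18.4 to 20.6 CPM in KI and 32.5 to 142 CPM in KD. Prg2 held 102 CPM in KD replicate 1 and 14.2 CPM in replicate 2. DESeq2 called it higher in KD, like 0.0384% of genes. Gp9 was at 0 counts in both KD libraries, Epx in KI replicate 2 and Fcer1a in KD replicate 2. Of 8 progenitor genes 5 were positive in fold change and 3 negative, with a median of 0.18. Higher in both KD libraries was 1, Cd34 (32.5 and 6.41 CPM in KI, 68.4 and 120 in KD), against 14.5% of all genes. Lower in both was 1, Kit (55.2 and 52.7 CPM in KI, 34.1 and 27.0 in KD), against 23.5%.

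**Figure D4:**
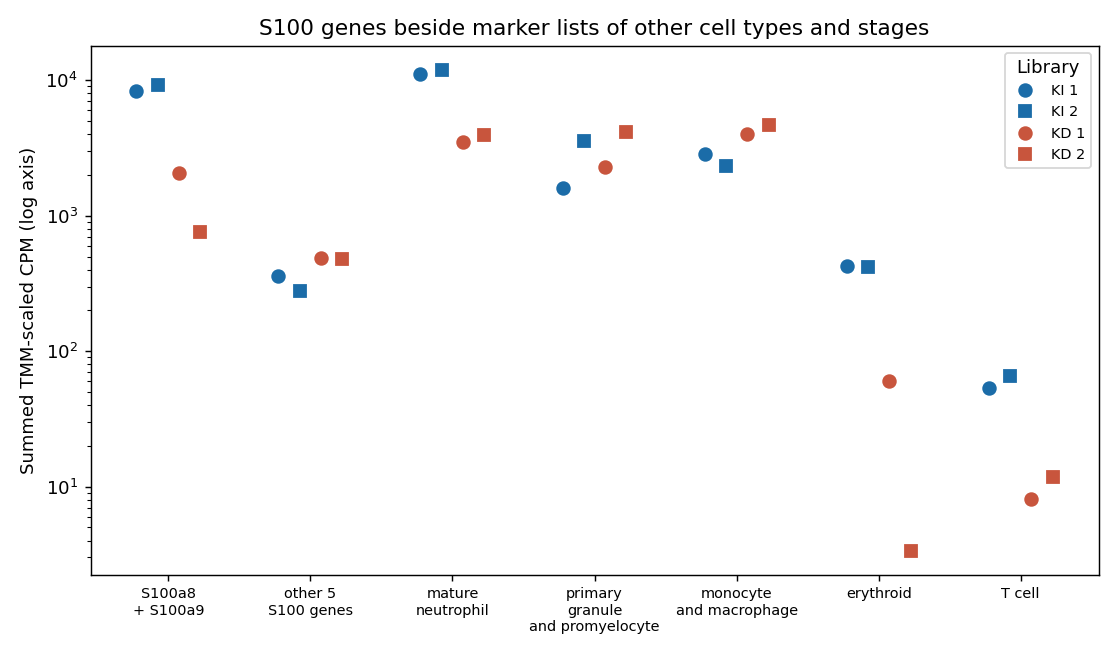
Summed TMM-scaled CPM (log axis) of S100a8 with S100a9, of the other 5 S100 genes and of 5 marker lists in each library, KI in blue and KD in red. Calprotectin, mature neutrophil, erythroid and T cell sums are lower in both KD libraries, the other S100 genes and the monocyte list are higher in both, and the primary granule sums interleave.

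The genes whose profile over the 4 libraries lay nearest to each member were found by the root mean square difference of centred log2 CPM, among 9633 genes of at least 5 CPM on average with a symbol that is no predicted gene. Only 4 libraries define these profiles, so near matches are a description. S100a8 and S100a9 lay 0.25 apart. The nearest gene to S100a8 was Slc2a3, a glucose transporter, at 0.14 (157 and 146 CPM in KI, 39.3 and 19.4 in KD), followed by Slc22a23 and Ffar2, a receptor for short-chain fatty acids. Nearest to S100a9 were Mogat2 and Card10, at 0.13 and 0.14, with at most 11.6 CPM in any library, and Tspan33. S100a10 lay nearest to Ddost, a subunit of the oligosaccharyltransferase, at 0.04 (93.9 and 111 CPM in KI, 170 and 269 in KD), and close to Il11ra1 and Pdia4, a disulfide isomerase of the endoplasmic reticulum. S100a4 was nearest to Sun1, S100a6 to Synj1, S100a11 to Carhsp1 and S100a13 to Kif13a. The distance between S100a9 and S100a10, 2.18, was the largest among the 21 pairs of members.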

How the data were processed

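RNA of 4 mice was sequenced from TruSeq Stranded mRNA libraries. The deposited values are raw counts per Ensembl gene, which the authors made with TopHat2 2.0.10, SAMtools and HTSeq on GRCm38, per the submitters' processing notes, which also name DESeq. The 5 closing entries that name no gene hold 93.2% to 97.9% of each library's total, mostly alignments that were not unique, and were left out. In the files of the chromatin libraries, 1616 columns name no antibody or mouse and were not used.

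In R 4.3.3, genes were kept by filterByExpr of edgeR 4.0.16 (13822 genes), scaled by TMM and tested with glmQLFit and glmQLFTest, genotype as the only term, with p adjusted over all genes. The standard error is the fold change over the root of F. Log2 CPM used a prior count of 3. Alternatives were DESeq2 1.42.0, voom of limma 3.58.1, other scalings (RLE, upper quartile, library size only, without the 10 most abundant genes), no filter or at least 5 CPM in 2 libraries, a robust prior, a replicate block, and leaving out each library. Symbols matched 40254 of 41214 identifiers. Promoters are from RefSeq, GRCm38.p6. The members, lists and naming rule (all members, fixed partner lists, the 3 nearest profiles per member) were chosen with earlier results of these data known. A marker gene of the lists is not reported here. Whether the mice were littermates is not given, and the p-values reflect no more than the variation among these 4 mice.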

Additional observations from a re-analysis of the deposited data

How the results depend on the processing

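Over the 14 alternatives, S100a8 and S100a9 stayed lower in KD and S100a4, S100a6, S100a10 and S100a13 higher. S100a11 reversed to 0.042 with library size only, whose median over all genes was itself 0.37. Of the 7 members, 2 passed with no low-count filter and 2 with DESeq2, S100a8 and S100a9 in both, and 0 to 3 when a library was left out (3 without KI replicate 2, with S100a10). Genes called across the transcriptome numbered 0 with all 4 libraries in edgeR, where 1331 had an unadjusted p under 0.05. They numbered 169 with no filter, 142 with DESeq2, 0 with limma-voom, and 14 to 4130 without 1 library, the most without KI replicate 2. Leaving out a library leaves 1 genotype with 1 mouse, whose spread is taken from the other genotype, and reruns the filter. The causes of these changes were not tested. With the replicate number as a block, 7 genes and 0 members were called. The numbers mark different mice, 2 pairs are too few to show a pairing, and the replicate differences of the genotypes correlated at 0.25 across genes. Genotypes did not overlap for 4 of the 7 members with TMM or upper quartile factors (38.0% and 38.4% of all genes) and for 5 with RLE factors (40.0%), library size only (55.1%) or the 10 most abundant genes left out (44.8%), with S100a13 added in the last 3 and S100a11 in place of S100a4 by upper quartile factors. The S100a8 share differed by 5.10 to 9.77 percentage points without 1 library. Depth limits S100a13 and S100a11 most, with 59 and 115 counts in KI replicate 1.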

Other observations

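Genes next to the S100 clusters on chromosome 3 were read as well. Before the main cluster, Ilf2, Snapin and Chtop, which encode an RNA-binding protein, a vesicle protein and a chromatin target of PRMT1, had log2 fold changes (KD over KI) of -0.13 ± 0.37, -0.12 ± 0.35 and 0.13 ± 0.30 (SE), with overlapping groups. Chtop, the nearest of them, lay at 62.4 and 91.0 CPM in KI and 81.9 and 86.5 CPM in KD. Before S100a11 stand Rptn, Tchh and Tchhl1, skin proteins that join an S100-like part to a long repeat. They stayed at or below 4.41 CPM in every library, with the highest values in KI replicate 1 (4.17, 4.41 and 2.78 CPM), the library with the most receptor counts. S100a3, S100a7a, S100a7l2 and S100a16 were also highest there, at 3 counts each. Of the genes after the clusters, Pglyrp3, Tdpoz1 and Tdpoz4 stood at or below 1.16 CPM in every library.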
